A study of Homo sapiens with 6 samples.

Results

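Serine synthesis and the folate one-carbon cycle were described through 9 enzymes: PHGDH, PSAT1 and PSPH, which make serine, the mitochondrial folate enzymes SHMT2, MTHFD2, MTHFD1L and ALDH1L2, and the cytosolic folate enzymes SHMT1 and MTHFD1. They are 9 of the 19775 genes that the arrays measured with at least 1 probe set carrying a single gene symbol. The enzymes were chosen by name, and each was represented by its probe set with the highest mean over all 6 arrays. That brightness was the value used in choosing, and it is given here as a description. The falls of PHGDH, PSAT1 and ALDH1L2 in the knockdown were already known when the enzymes were picked. No p-value is therefore given for these 3 against scramble, and their place in the counts of called enzymes is a description. The other enzymes were also picked with earlier results of these data known, so every p-value given for an enzyme is descriptive.

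The cells were H1299, an established human line of p53-deficient lung carcinoma (non-small-cell type), grown in medium with 10% serum. All 3 groups were infected with lentivirus carrying an shRNA and harvested after 72 hours: a scramble control, shRNA 1 (RBP2 KD1) and shRNA 2 (RBP2 KD2), with 2 arrays each. RBP2 is KDM5A, a histone H3 lysine 4 demethylase. The labels do not say whether the 2 arrays of a group came from separate cultures, so p-values measure the spread between these arrays only, which may be technical. Values are on the log2 scale, where a difference of 1 is a 2-fold change.

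In cells, PHGDH, PSAT1 and PSPH turn a glycolytic intermediate into serine in that order. Serine then hands a carbon to tetrahydrofolate through SHMT2 in mitochondria or SHMT1 in the cytosol. MTHFD2 and MTHFD1L carry that carbon on to formate inside mitochondria, ALDH1L2 can burn it to carbon dioxide while making NADPH, and MTHFD1 uses formate in the cytosol for purine and thymidylate synthesis. Several of these genes are known targets of ATF4, the transcription factor of the amino acid response.

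The arrays were of like brightness, with medians over tested genes between 8.49 and 8.56. The targeted gene KDM5A had group means of 9.38 ± 0.05 for scramble, 7.34 ± 0.11 for shRNA 1 and 6.69 ± 0.05 for shRNA 2 (each SD, n = 2). The line's own markers VIM, KRT8, KRT18 and CDH2 lay between 9.08 and 15.04 on every array. Their summed log2 level was 47.02 to 47.07 in scramble cells and 47.83 to 48.48 in knockdown cells. The 4 did not move alike. KRT8 was higher by 0.56 in the mean of both shRNAs (limma adjusted p = 0.0442), while VIM and KRT18 changed by 0.02 and 0.16 (adjusted p = 0.877 and 0.470). CDH2 changed by -0.14 with shRNA 1 (adjusted p = 0.675) and 0.69 with shRNA 2 (adjusted p = 0.0431). The 3 measured blood cell markers PTPRC, CD3E and CD14 stood at the floor of 2.24 on all arrays. Of 4 markers of endothelium and fibroblasts, PECAM1, CDH5 and DCN were below 4 throughout and COL1A1 was between 6.20 and 7.02, and the 4 summed to 12.97 to 13.17 in scramble cells and to 13.04 to 13.81 in knockdown cells.

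Of the 9 enzymes, 7 could be tested and 5 of these were lower with each shRNA: PHGDH, PSAT1, SHMT2, MTHFD2 and ALDH1L2. PSPH and MTHFD1 did not pass, and the probe sets that carry SHMT1 or MTHFD1L alone stood near the floor on every array. A gene was tested when its mean log2 over the 6 arrays was at least 4, and all 7 tested enzymes were above 4 on each array. A gene was called at a limma adjusted p under 0.05, adjusted over all 10526 tested genes. In the mean of both shRNAs 5 enzymes were called lower and 0 higher, where 6.92% of all tested genes were called lower and 5.61% higher. The share of all tested genes called lower was 7.9% with shRNA 1 and 14.4% with shRNA 2. The median log2 fold change of the 7 enzymes was -1.33 in the mean of both shRNAs, beside 0.02 over all tested genes. Since the enzymes were chosen with falls among them known, nothing is read from these counts about the group. Both comparisons use the same 2 scramble arrays, so they are not independent of each other.

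**Figure D1:**
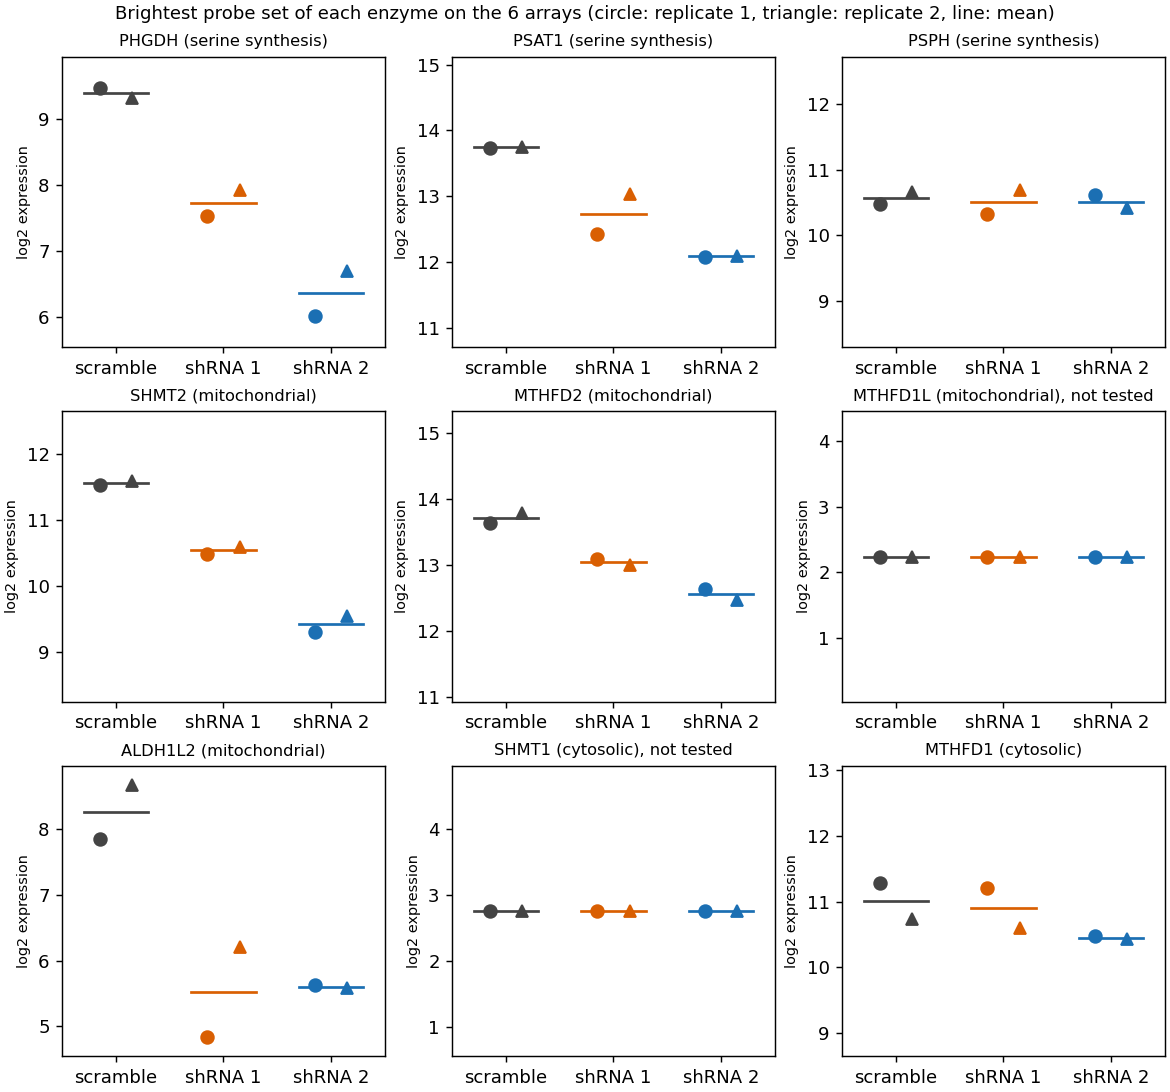
Log2 expression of the brightest probe set of each of the 9 enzymes in scramble, shRNA 1 and shRNA 2 cells, with circles for replicate 1, triangles for replicate 2 and lines for group means; every panel spans the same height. PHGDH, PSAT1, SHMT2, MTHFD2 and ALDH1L2 lie below scramble on all 4 knockdown arrays, PSPH and MTHFD1 overlap with scramble, and the plotted probe sets of MTHFD1L and SHMT1 are flat near the floor.

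Because PHGDH, PSAT1 and MTHFD2 were lower together, the bases before their start sites are shown, beside those of MTHFD1, which was not called, and MTHFD1L, which had no usable probe set of its own. The sequences are RefSeq's (GRCh38.p14), the 250 bases before an annotated start, all on the plus strand. The table used had windows for 6 of the 9 enzymes. PSPH, SHMT2 and ALDH1L2 had none. MTHFD1L had 4 of the 9 windows of these enzymes, and the one shown was picked because it holds all 3 motifs. Capitals mark CCAAT, the CACGTG E-box bound by MYC and related factors, and TGATGNAA, the core of the element bound by ATF4 with C/EBP factors, each on either strand.
PHGDH, chr1:119711684-119711933: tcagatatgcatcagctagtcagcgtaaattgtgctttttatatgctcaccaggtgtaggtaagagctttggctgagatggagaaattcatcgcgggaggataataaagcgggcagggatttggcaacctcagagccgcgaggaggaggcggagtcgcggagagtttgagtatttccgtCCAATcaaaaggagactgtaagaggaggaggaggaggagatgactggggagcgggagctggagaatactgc
PSAT1, chr9:78296875-78297124: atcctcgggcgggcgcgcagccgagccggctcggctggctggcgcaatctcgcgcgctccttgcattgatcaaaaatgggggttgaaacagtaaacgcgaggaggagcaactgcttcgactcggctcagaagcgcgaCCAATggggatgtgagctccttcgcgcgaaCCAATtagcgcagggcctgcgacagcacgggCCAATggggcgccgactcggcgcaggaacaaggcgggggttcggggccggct
MTHFD2, chr2:74198365-74198614: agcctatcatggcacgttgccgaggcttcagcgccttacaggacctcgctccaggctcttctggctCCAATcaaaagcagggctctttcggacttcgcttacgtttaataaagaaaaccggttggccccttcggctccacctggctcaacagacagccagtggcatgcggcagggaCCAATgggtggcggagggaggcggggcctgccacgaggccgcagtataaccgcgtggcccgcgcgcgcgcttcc
MTHFD1, chr14:64388103-64388352: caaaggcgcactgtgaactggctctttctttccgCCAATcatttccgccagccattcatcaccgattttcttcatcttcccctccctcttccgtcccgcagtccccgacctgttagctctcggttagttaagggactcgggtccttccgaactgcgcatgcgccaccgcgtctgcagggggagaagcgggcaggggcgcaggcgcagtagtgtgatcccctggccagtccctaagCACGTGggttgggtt
MTHFD1L, chr6:150866236-150866485: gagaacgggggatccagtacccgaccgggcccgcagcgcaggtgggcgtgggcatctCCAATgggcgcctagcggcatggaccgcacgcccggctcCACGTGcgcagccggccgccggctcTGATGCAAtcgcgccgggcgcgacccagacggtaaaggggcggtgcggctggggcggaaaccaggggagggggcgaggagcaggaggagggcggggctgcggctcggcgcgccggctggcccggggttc
In the whole 300-base windows, from 250 before to 50 after the start, TGATGNAAN on either strand was found for MTHFD1L alone among the 6 enzymes with windows, in 3 of its 4 windows, which overlap and share 1 site. That element was in 3.61% of all 35116 windows, and 4.45% of the 27305 genes had it in at least 1 window. Without its last base it gave the same enzyme, 3.62% of windows and 4.46% of genes. CACGTG was found for MTHFD1L, in 3 of 4 windows, and MTHFD1, and for 7.26% of windows and 8.77% of genes. CCAAT was found for all 6 enzymes, in 3 of 4 windows of MTHFD1L, and for 34.6% of windows and 39.7% of genes. It was searched after the sequences had been seen, and it occurs here in enzymes that fell and in MTHFD1. PSAT1 holds 3 copies and MTHFD2 holds 2 in the stretches shown. These matches describe letters only, and the motifs TGATGNAAN and TGATGNAA overlap.

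PHGDH, which catalyses the first and committed step of serine synthesis, read 9.46 and 9.31 in scramble cells. With shRNA 1 it read 7.52 and 7.92, and with shRNA 2 it read 6.01 and 6.69. The 3 groups did not overlap, and the lowest values were those of shRNA 2. PHGDH was thus 3.17-fold lower with shRNA 1 (log2 fold change -1.67 ± 0.27, limma SE) and 8.21-fold lower with shRNA 2 (-3.04 ± 0.27). The difference between the shRNAs was itself called, at 1.37 ± 0.27 (limma adjusted p = 0.0147). Leaving out arrays ended that call in 2 cases: without shRNA 1 replicate 2 the difference was 1.17, and without shRNA 2 replicate 1 it was 1.03.

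PSAT1, the aminotransferase of the next step, read 13.74 and 13.75 in scramble cells. It read 12.42 and 13.04 with shRNA 1 and 12.08 and 12.10 with shRNA 2, again with no overlap between groups. The log2 fold changes were -1.01 ± 0.22 and -1.65 ± 0.22. The shRNA 1 value was not called with arrays centred on their medians, where it was -0.97, or with probe sets fitted one by one. The difference between the shRNAs did not pass (0.64, limma adjusted p = 0.0671), but it did once replicate number entered as a block (adjusted p = 0.0353). Its size depended on the shRNA 1 arrays: it was 0.95 and called without replicate 1, and 0.34 and not called without replicate 2. A second PSAT1 probe set gave -1.49 with shRNA 1 and -2.10 with shRNA 2, so both probe sets placed shRNA 2 lower. Both may cross-hybridise by their names, and PSAT1 was not tested when such probe sets were set aside.

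PSPH, the phosphatase that releases free serine, did not follow the other serine synthesis enzymes. Scramble cells read 10.48 and 10.66, shRNA 1 cells 10.32 and 10.69, and shRNA 2 cells 10.61 and 10.42, and all groups overlapped. The mean log2 fold change was -0.06 (limma adjusted p = 0.820), with a 95% interval of -0.44 to 0.32. This interval leaves room for small changes in either direction but lies above the values of PHGDH and PSAT1. Its other probe sets gave mean changes of -0.21 and 0.14, and neither passed when probe sets were fitted one by one (limma adjusted p = 0.378 and 0.656).

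SHMT2, the mitochondrial enzyme that splits serine into glycine and a folate-bound carbon, fell in even steps from scramble to shRNA 1 to shRNA 2. It stood at 11.54 and 11.59 on the scramble arrays, 10.49 and 10.59 on those of shRNA 1, and 9.30 and 9.54 on those of shRNA 2. Arrays of a group differed by at most 0.24, while the group means stood more than 1 unit apart. The fall against scramble was 2.03-fold for shRNA 1 (limma adjusted p = 0.0158) and 4.41-fold for shRNA 2 (adjusted p = 0.00254). The difference between the shRNAs was 1.12 ± 0.13 (limma adjusted p = 0.00344), and it was called whichever array was left out. The 2 other SHMT2 probe sets gave -1.15 and -1.31 with shRNA 1 and -2.21 and -2.43 with shRNA 2, close to the brightest one. The brightest one and the one that gave -1.15 may cross-hybridise by their names. When such probe sets were set aside, the mean change of SHMT2 was -1.87 in place of -1.58 and was still called lower.

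MTHFD2, the mitochondrial dehydrogenase and cyclohydrolase known to be high in many cancers, had smaller fold changes. Scramble arrays gave 13.64 and 13.79, shRNA 1 arrays 13.09 and 13.00, and shRNA 2 arrays 12.64 and 12.47. The groups did not overlap and kept the order seen for SHMT2. The fall was 1.59-fold for shRNA 1 (limma adjusted p = 0.0360) and 2.23-fold for shRNA 2 (adjusted p = 0.00513). The difference of 0.49 ± 0.13 between the shRNAs was called (limma adjusted p = 0.0311), but not when any 1 of the 6 arrays was left out. A second MTHFD2 probe set, which may cross-hybridise by its name, gave -0.71 with shRNA 1 and -3.15 with shRNA 2. On the 2 shRNA 2 arrays it read 2.69 and 3.41, near the floor, so the size of that fall depends on the probe set. With the mean of both probe sets the shRNA 1 value was -0.69 and not called (limma adjusted p = 0.0705).

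ALDH1L2, the mitochondrial formyltetrahydrofolate dehydrogenase, had the largest mean change of the 7 and the widest spread. The scramble values were 7.84 and 8.66, those of shRNA 1 were 4.84 and 6.21, and those of shRNA 2 were 5.63 and 5.58. All 4 knockdown arrays lay below both scramble arrays, while the 2 shRNA groups overlapped. ALDH1L2 was 6.62-fold lower with shRNA 1 (log2 fold change -2.73 ± 0.51) and 6.26-fold lower with shRNA 2 (-2.65 ± 0.51). The shRNA 1 value was -2.04 without shRNA 1 replicate 1 and -3.41 without replicate 2. The difference between the shRNAs was -0.08 (limma adjusted p = 0.919), with a 95% interval of -1.38 to 1.22, so a difference as large as that of SHMT2 could not be told from none. Its sign turned with single arrays: leaving out shRNA 1 replicate 1 gave 0.60, and leaving out replicate 2 gave -0.76. Its 2 other probe sets stood at or near the floor.

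**Figure D2:**
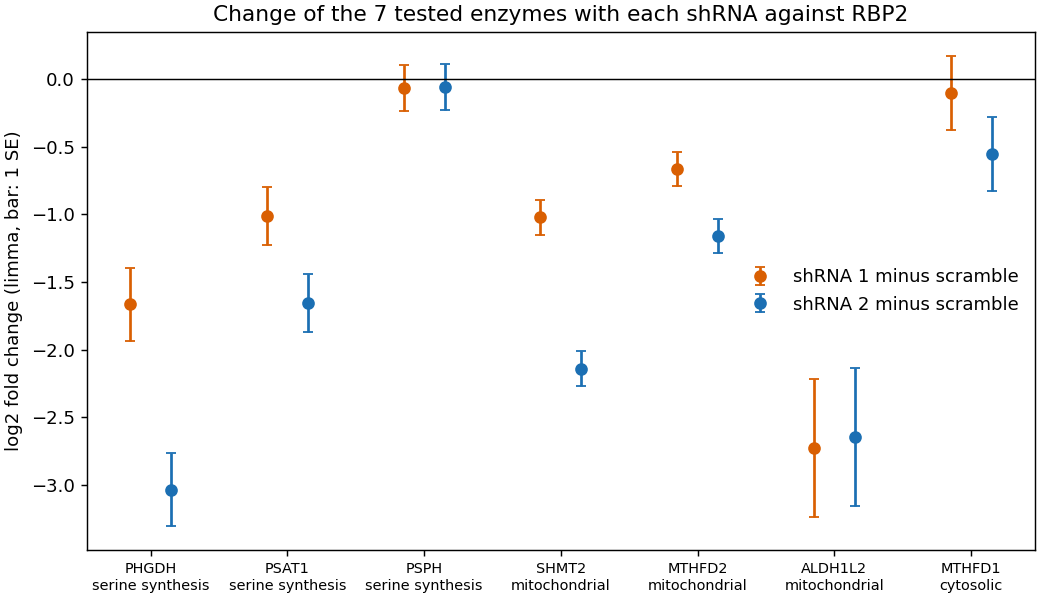
Log2 fold change against scramble of the 7 tested enzymes with shRNA 1 and shRNA 2 (limma, bars of 1 SE), ordered by role. PHGDH, PSAT1, SHMT2 and MTHFD2 lie lower with shRNA 2 than with shRNA 1, ALDH1L2 lies near -2.7 with both, and PSPH lies near 0.

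MTHFD1, the cytosolic enzyme that holds 3 folate activities in 1 protein, was the only cytosolic enzyme tested through a probe set that carries it alone. Its 2 scramble values were 11.28 and 10.73, its shRNA 1 values 11.21 and 10.60, and its shRNA 2 values 10.48 and 10.43. The shRNA 1 arrays lay within or just below the scramble range, and both shRNA 2 arrays lay below it. Each knockdown array read lower than the scramble array of the same replicate number. The log2 fold change was -0.10 with shRNA 1 (limma adjusted p = 0.854) and -0.55 with shRNA 2 (adjusted p = 0.186). When replicate number was added as a block, the shRNA 2 value passed (limma adjusted p = 0.0477), which made 6 of 7 enzymes called lower beside 22.2% of all tested genes. Replicate 2 was lower than replicate 1 by 0.55 in scramble cells and by 0.61 with shRNA 1.

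SHMT1 and MTHFD1L had no usable probe set of their own. The 2 probe sets that carry SHMT1 alone read between 2.25 and 2.76 on all arrays, and the 2 that carry MTHFD1L alone read 2.24. Brighter probe sets list these genes together with others and were not assigned to either. A pair listing SHMT1 with the microRNA gene MIR6778 had mean log2 fold changes of 0.10 and 0.31, and neither passed (limma adjusted p = 0.863 and 0.241, probe sets fitted one by one). A pair listing MTHFD1L with LOC101928195 and LOC100996643 was lower, by -1.51 (adjusted p = 0.0194) and -1.17 (adjusted p = 0.0350), beside 5.1% of all probe sets called lower in that fit. These last 2 disagreed on the shRNAs: one gave -1.90 with shRNA 1 and -1.12 with shRNA 2, the other -0.42 and -1.92. A probe set listing PHGDH with MZT2A and MZT2B read between 11.89 and 12.23 on all arrays and had a mean change of -0.02 (limma adjusted p = 0.944), unlike the probe set that carries PHGDH alone.

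**Figure D3:**
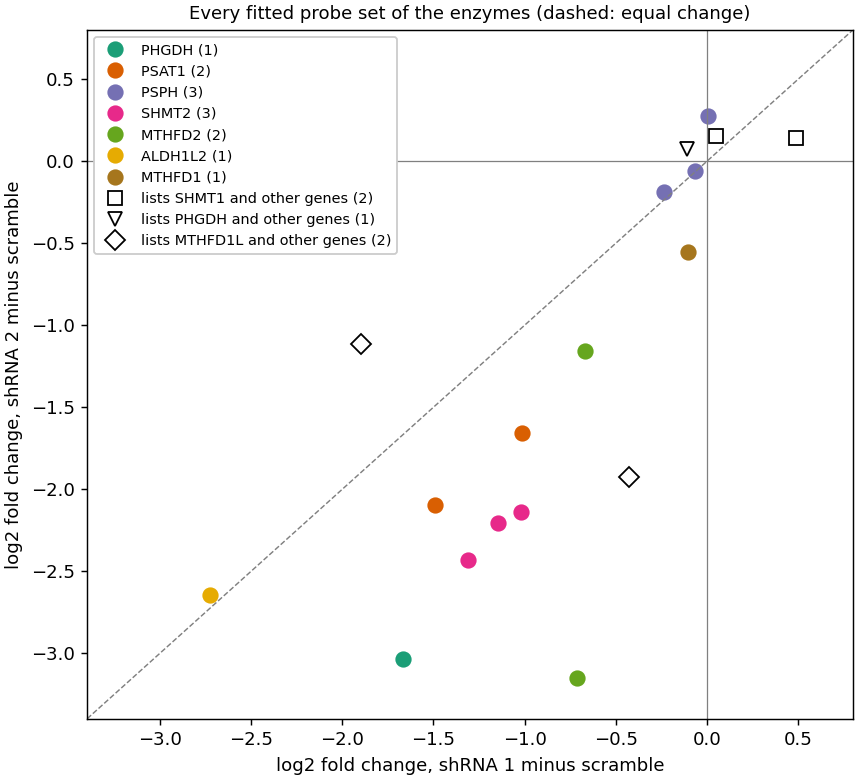
Log2 fold change with shRNA 1 (x axis) against shRNA 2 (y axis) for each probe set of mean log2 of at least 4 that carries 1 of the enzymes alone (filled, number of probe sets in brackets) or lists it with other genes (open); both axes share the scramble arrays. The 3 SHMT2 probe sets lie together, the 2 MTHFD2 probe sets lie apart along the shRNA 2 axis, and the 2 that list MTHFD1L lie on opposite sides of the line of equal change.

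With probe sets that carry an enzyme alone, the mitochondrial and cytosolic arms could be set side by side only through MTHFD1. The 3 tested mitochondrial enzymes ranged from -0.67 to -2.73 in log2 fold change for shRNA 1 and from -1.16 to -2.65 for shRNA 2, and all 3 were called lower with each shRNA, whereas MTHFD1 was not called, which by itself shows no difference between the arms. To describe the difference itself, MTHFD1 was subtracted within each array. SHMT2 minus MTHFD1 was 0.25 and 0.85 on the scramble arrays, -0.73 and -0.01 on the shRNA 1 arrays, and -1.17 and -0.90 on the shRNA 2 arrays. ALDH1L2 minus MTHFD1 was -3.44 and -2.07 in scramble cells and between -6.37 and -4.40 in the knockdown. In both pairs all 4 knockdown arrays lay below both scramble arrays, and the mean shifts were -1.25 and -2.36. SHMT2 and ALDH1L2 lay below scramble in this way without the subtraction too, as did 9.03% of all tested genes. The share of all tested genes that would do so after subtracting MTHFD1 was not computed, so nothing is read from it about the arms. MTHFD2 minus MTHFD1 shifted by -0.58, with overlap: the scramble arrays gave 2.35 and 3.05, shRNA 1 gave 1.88 and 2.39, and shRNA 2 gave 2.17 and 2.03. Against the scramble array of the same replicate number, all 4 knockdown arrays were lower in this pair too. The MTHFD2 pair used the brightest MTHFD2 probe set, and its shift and overlap hold for that probe set only. The second MTHFD2 probe set, near the floor with shRNA 2, changed by -0.71 with shRNA 1 and -3.15 with shRNA 2. It was not paired with MTHFD1. The shifts of all pairs are given without p-values, since an exact permutation test, two-sided, cannot go below p = 0.133 with 4 against 2 arrays. The pairs of SHMT2 and ALDH1L2 were also chosen after their values were seen. The comparisons planned between SHMT2 and SHMT1 and between MTHFD1L and MTHFD1 were not made, because the probe sets carrying SHMT1 or MTHFD1L alone stood near the floor and the brighter ones list other genes.

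**Figure D4:**
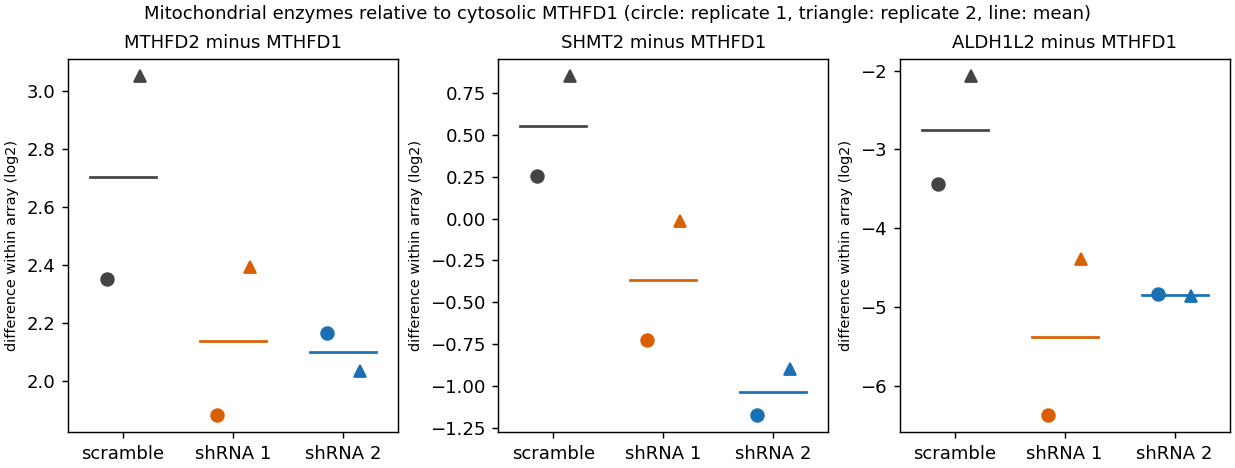
Difference in log2 value within each array between a mitochondrial enzyme and cytosolic MTHFD1, by group, with circles for replicate 1, triangles for replicate 2 and lines for group means; each panel has its own scale, and only shifts between groups can be read, not levels. SHMT2 and ALDH1L2 lie lower relative to MTHFD1 on all 4 knockdown arrays, while MTHFD2 with shRNA 1 overlaps with scramble. Only the brightest probe set of each enzyme is plotted, and the share of all tested genes that would lie lower in this way was not computed.

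Whether the enzymes differed from each other in how the shRNAs compared was not tested. The difference between shRNA 1 and shRNA 2 was called for 3 of 7 enzymes, PHGDH, SHMT2 and MTHFD2, all lower with shRNA 2, beside 17.8% of all tested genes called in that direction. Blocking on replicate number made it 4 of 7, PSAT1 added, beside 25.1%. KDM5A itself was lower with shRNA 2 than with shRNA 1 by 0.65 (limma adjusted p = 0.0101), and ATF4 by 0.74 (adjusted p = 0.00594). Whether these levels bear on the enzymes was not tested. The 5 enzymes called lower also had all 4 knockdown arrays below both scramble arrays, which held for 9.03% of all tested genes.

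The patterns most like those of 3 enzymes were taken by Pearson's r over the 6 arrays, among 3142 tested genes with an SD of at least 0.5. These r are descriptions, since the 6 values fall into 3 groups. For PHGDH the closest were UGGT1, SLC66A3, ZEB2, SHMT2 and CHAC1, with r from 0.988 to 0.993. SHMT2 was the only other enzyme of the 9 among these closest genes. For MTHFD2 they were PRKX, HEATR5A, ANTXR2, ACSL4 and TTPAL, with r from 0.983 to 0.992. For ALDH1L2 they were PCK2, the mitochondrial enzyme that makes phosphoenolpyruvate, LOXL1-AS1, TUBE1, TP53INP1 and STC2, with r from 0.970 to 0.981. The log2 fold changes of PCK2 were -2.12 for shRNA 1 and -2.21 for shRNA 2, and those of CHAC1 were -1.85 and -3.06. Genes picked by r over these arrays follow the group values of their enzyme by that choice. Nothing further is read from their order of groups.

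CBS and CTH, which lead from serine and homocysteine to cysteine, fell with each shRNA. In the methionine cycle and transsulfuration 3 of 7 tested genes were called lower and 0 higher in the mean of both shRNAs, beside 6.92% and 5.61% of all tested genes. This list and those that follow were chosen with earlier results of these data known. Nothing is therefore read from their counts about any list, and the p-values of their genes are descriptive. Apart from the regulators, the genes named are those of smallest adjusted p in each list. CBS, which joins serine to homocysteine, changed by -1.35 with shRNA 1 (limma adjusted p = 0.0189) and -1.31 with shRNA 2 (adjusted p = 0.00915). CTH, the next enzyme toward cysteine, changed by -0.85 and -1.05 (adjusted p = 0.0224 and 0.00629). MTR, which passes a folate-bound methyl group to homocysteine, had a mean change of -0.60 (limma adjusted p = 0.0380), and MAT2A, which makes S-adenosylmethionine, had -0.39 (adjusted p = 0.0876).

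Of 11 tested genes of serine and glycine transport and use, 2 were called lower in the mean of both shRNAs and 0 higher, against the same shares of all genes. SLC1A4, a carrier of serine, alanine and cysteine, had group means of 8.10 ± 0.03 for scramble, 6.02 ± 0.24 for shRNA 1 and 6.53 ± 0.15 for shRNA 2 (each SD, n = 2), a mean change of -1.82 (limma adjusted p = 0.0116). SFXN1, the mitochondrial serine carrier, had 0.28 with shRNA 1 (adjusted p = 0.236) and -1.65 with shRNA 2 (adjusted p = 0.00333). Its difference between the shRNAs was 1.92 (limma adjusted p = 0.00130). SFXN3 of the same family had -0.87 and 1.96, of which the second passed (adjusted p = 0.0130), and SLC1A5 had -0.59 and -0.54, of which neither passed (adjusted p = 0.188 and 0.154).

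Of 10 other tested folate genes, 2 were called lower in the mean of both shRNAs and 0 higher against those shares (6 and 0 when blocked on replicate number, beside 17.5% of all tested genes called lower). GGH and FPGS passed with shRNA 2 and not with shRNA 1. GGH, which removes the glutamate tail of folates, had -0.27 with shRNA 1 (limma adjusted p = 0.266) and -2.22 with shRNA 2 (adjusted p = 0.00271). FPGS, which adds that tail, had -0.38 (adjusted p = 0.409) and -2.15 (adjusted p = 0.00672). TYMS, the thymidylate synthase, had -0.24 and -2.36 (adjusted p = 0.805 and 0.0249), and DHFR2 had -1.23 and 0.07 (adjusted p = 0.0415 and 0.843). All 4 differed between the shRNAs (limma adjusted p = 0.00134 for GGH, 0.00667 for FPGS, 0.0262 for TYMS and 0.0130 for DHFR2).

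The glycine cleavage system had 3 tested genes, and limma called 0 of them in the mean of both shRNAs (2 lower and 1 higher with the block), though all 3 had an unadjusted p under 0.05. Each passed with 1 shRNA: GLDC, the glycine decarboxylase, at -0.71 with shRNA 1 (limma adjusted p = 0.0236), GCSH at -0.79 with shRNA 2 (adjusted p = 0.0105) and DLD at 0.78 with shRNA 2 (adjusted p = 0.0202). The difference between the shRNAs was called for each (limma adjusted p = 0.00717, 0.0106 and 0.0136). Of 5 known regulators of serine synthesis genes, 1 was called lower and 1 higher in the mean of both shRNAs (2 and 1 with the block). The counts of both lists stand beside 6.92% of all tested genes called lower and 5.61% higher. With the block 17.5% were called lower, and 3670 of 10526 were called in either direction. ATF4 was lower with shRNA 1 at -0.62 (adjusted p = 0.0301) and with shRNA 2 at -1.36 (adjusted p = 0.00325). EHMT2, a histone H3 lysine 9 methyltransferase, was higher in the mean of both shRNAs at 0.71 (limma adjusted p = 0.0211). It passed with shRNA 2 at 0.99 (adjusted p = 0.00589) and not with shRNA 1 at 0.43 (adjusted p = 0.0772). That difference between the shRNAs was called (limma adjusted p = 0.0166). MYC, NFE2L2 and KDM4C had mean changes of -0.72, 0.03 and 0.08, and none passed (adjusted p = 0.236, 0.878 and 0.761). The NFE2L2 mean joins opposite values, 0.43 with shRNA 1 and -0.38 with shRNA 2, of which neither passed (adjusted p = 0.0772 and 0.0612). Its difference of 0.81 between the shRNAs was called (limma adjusted p = 0.00582).

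**Figure D5:**
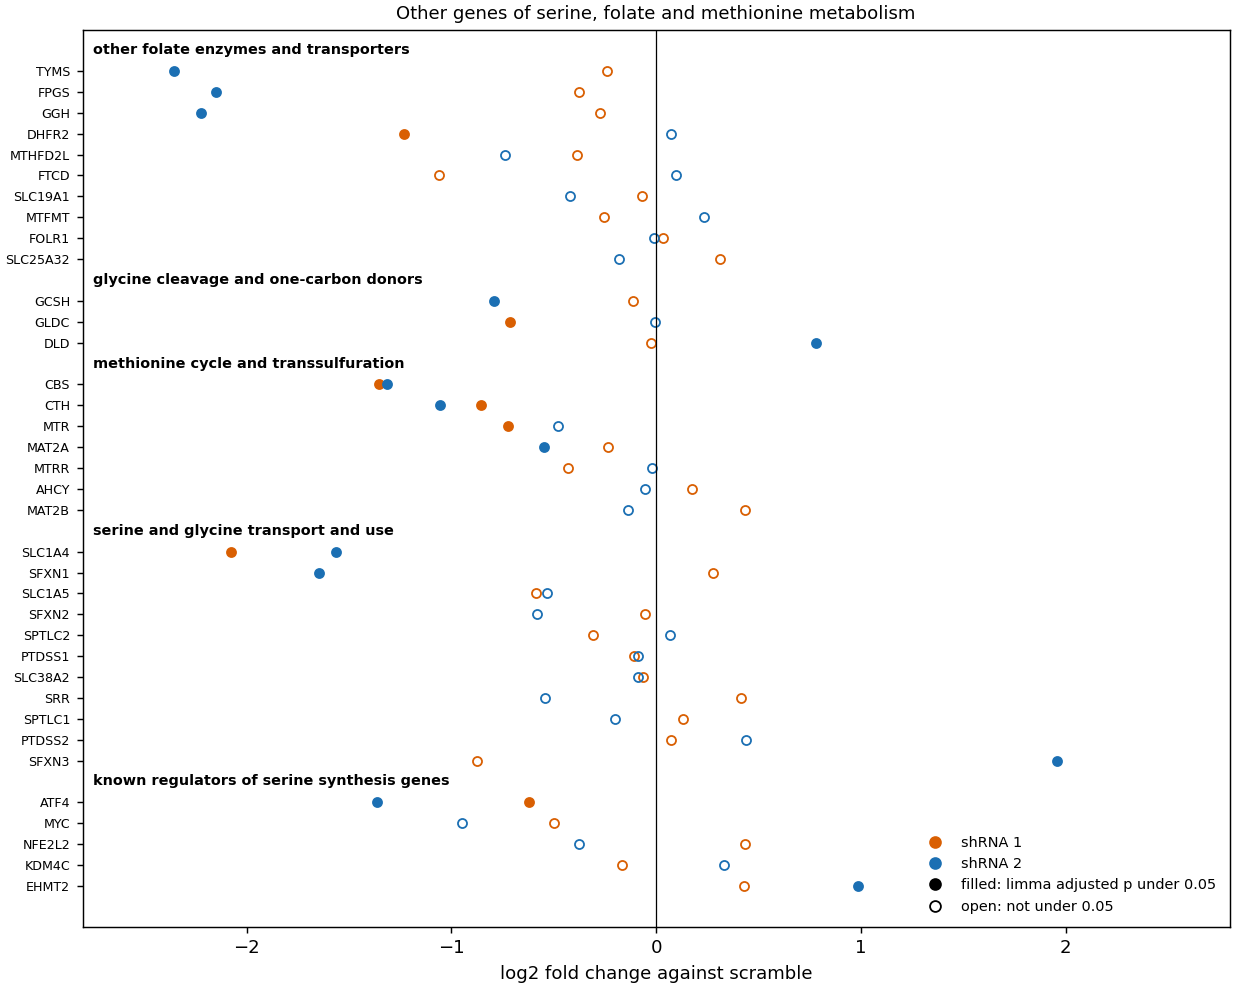
Log2 fold change against scramble with shRNA 1 and shRNA 2 for the other tested genes of serine, folate and methionine metabolism and known regulators, ordered within each list by mean change; filled points have a limma adjusted p under 0.05. CBS, CTH, SLC1A4 and ATF4 are filled and to the left for both shRNAs, while GGH, FPGS, TYMS and SFXN1 are filled with shRNA 2 only.

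The calls against scramble rest on few arrays. In the mean of both shRNAs the 5 called enzymes stayed called without shRNA 1 replicate 1, and 0 were called when any other single array was left out. There limma called 0 to 7 of all 10526 genes, 2247 to 3031 genes had an unadjusted p under 0.05, and 5 enzymes still had an unadjusted p under 0.05. With shRNA 1 alone the count was 0 or 1 whichever array was left out, and also 0 when dim genes were kept or when only the 4 arrays of the compared groups were fitted. With shRNA 2 alone it was 3 to 5 whichever array was left out.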

How the data were processed

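The deposited values are log2 expression per probe set. The submitters' processing notes name GCRMA, with no version stated in what was used here. GCRMA models background by probe sequence and equalises arrays, and dim probe sets end at a common low value. The lowest value, called the floor, was 2.24, at which 37.8% to 38.7% of an array's values stood. Labelling started from 250 ng of total RNA, per the labels.

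Of 54675 probe sets, 41091 carried 1 symbol in the platform annotation, 1801 several, 11721 none and 62 were controls. Each of 19775 genes took its brightest single-symbol probe set, and 10526 with a mean log2 of at least 4 were tested. The 9 enzymes had 20 single-symbol probe sets and 5 that list other genes too. Limma 3.58.1 in R 4.3.3 fitted 1 model over all 6 arrays (3 residual and 2.09 prior degrees of freedom), tested two-sided with Benjamini-Hochberg adjustment. The script was tested on simulated data. The number of arrays limits the precision, with a median SE of 0.14 for both shRNAs averaged and 0.17 otherwise.

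The members and lists were chosen with earlier results of these data known. All 9 enzymes were named, and of each other list the up to 4 genes of smallest adjusted p when both shRNAs were averaged, all 5 regulators, and the 5 genes most like each of 3 enzymes. Alternatives covered probe set choice, filters, normalization, the eBayes prior, the replicate block, fits of 4 arrays and leaving out each array. Fitting probe sets one by one, the CCAAT search, the motif shares per gene and the pairs of SHMT2 and ALDH1L2 with MTHFD1 were added after seeing the data. Replicate numbers come from the titles. Deviations of same-numbered arrays correlated in all 3 pairs of groups (0.75, 0.51 and 0.53 across genes), so arrays of one number were treated as pairs in the block. The main p-values come from the fit without the block and do not use this pairing.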

Additional observations from a re-analysis of the deposited data

Results flagged for a closer look

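The change against scramble differed between the 2 shRNAs for 3 enzymes by limma's test of the difference itself. PHGDH was lower with shRNA 2 by 1.37 on the log2 scale, SHMT2 by 1.12 and MTHFD2 by 0.49. Of all tested genes, 17.8% were called in this direction. No group had the 4 arrays needed to look for single outlying arrays.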

How the results depend on the processing

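No fold change of a tested enzyme that passed in the main setting or in an alternative changed sign under any alternative run. Counts of calls moved more. With no filter on dim probe sets, 1 enzyme was called lower in the mean of both shRNAs, 0 with shRNA 1, 3 with shRNA 2, and 1 was called higher with shRNA 1 than with shRNA 2, while 332, 311, 1470 and 2477 of all 19775 genes were called, in place of 1318, 1213, 3264 and 4327 of 10526. With the replicate number as a block, all genes called rose to 3670 in the mean of both shRNAs, 3117 with shRNA 1 and 5324 with shRNA 2, and beyond MTHFD1 with shRNA 2 and PSAT1 between the shRNAs it changed no call of an enzyme. With shRNA 1, 3 enzymes were called with the mean of all probe sets, where ALDH1L2 fell under the filter and MTHFD2 was not called, and 0 with the 4 arrays of the 2 groups alone, where 191 genes were called in all and 5 enzymes had an unadjusted p under 0.05. Leaving out 1 array, with the lone array of a group assumed to vary like the others, gave 0 to 5 enzymes called lower in the mean of both shRNAs, 0 to 1 with shRNA 1, 3 to 5 with shRNA 2, and 1 to 3 called higher with shRNA 1 than shRNA 2. The same fits called 0 to 457, 0 to 191, 624 to 2928 and 1874 to 3718 of all genes. The cause was not tested beyond the fewer arrays or added dim genes that these settings bring. The number of arrays limits what can be seen. For SHMT1 and MTHFD1L, the probe sets that carry them alone stood near the floor. Brighter probe sets list other genes too and were not assigned to either.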
